A study of Mus musculus with 8 samples.

Results

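Expression of *Txnip* (thioredoxin-interacting protein), the α-arrestins closest to it, the transcription factors that switch it on with glucose, and the thioredoxin system it acts on was examined in islets of mice with and without the cannabinoid 1 receptor (CB1R) in beta cells. The 10 genes were *Txnip*, *Arrdc4*, *Arrdc3*, *Mlxipl*, *Mlxip*, *Mlx*, *Txn1*, *Txn2*, *Txnrd1* and *Txnrd2*. They were found by the RefSeq accession of each array probe, which gave 14 of the 55681 probes on the array. All 14 were well above background on all 8 arrays and were among the 39124 probes compared. *Txnip*, *Arrdc4*, *Mlxipl* and *Mlxip* had 2 probes each and the other 6 genes had 1.

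The arrays held RNA of hand-picked islets from male C57BL/6 mice on a standard diet. All mice carried floxed *Cnr1* on both alleles and had received tamoxifen; the 3 β-CB1R-/- mice also carried the MIP-Cre/ERT transgene and the 4 β-CB1R+/+ littermates did not. The second β-CB1R-/- mouse was run on 2 arrays, which were averaged. The genotype is that of the series title and the study's methods; the sample labels say only CB1 wild type or knockout, and their husbandry text speaks of the global knockout. Cre, under the mouse insulin promoter, was therefore present only in the knockouts, the age at islet isolation was not given for the arrays, and array position on the 1 slide and genotype cannot be told apart. In the files the probe for *Cnr1* itself was between -1.11 and -0.02 in β-CB1R+/+ mice and between -3.13 and -2.28 in β-CB1R-/- mice. Its log2 fold change was -1.97 ± 0.33 (SE), with an adjusted p of 0.193 in limma.

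TXNIP binds reduced thioredoxin and holds back its activity, and as an α-arrestin it also lowers glucose uptake by drawing glucose transporters from the cell surface. Its gene is among the most glucose-responsive in beta cells, where ChREBP (*Mlxipl*) and MondoA (*Mlxip*), each paired with MLX, sense glucose metabolites and bind paired E-box-like sequences in its promoter; *Arrdc4* is regulated in the same way. Thioredoxins 1 (cytosolic) and 2 (mitochondrial) reduce oxidised proteins and are in turn reduced by thioredoxin reductases 1 and 2. FOS, an immediate-early factor, appears within minutes of stimulation or stress. It is set beside *Txnip* here because its level differed widely between these mice and *Txnip* was already known to be higher where *Fos* was high.

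The promoters were read for the paired E-box-like letters that ChREBP and MondoA bind, and for a single E-box, which is not that pair. RefSeq gives 15 promoters for the 10 genes (GRCm38.p6, 250 bases before to 50 after each start site), and each was searched on both strands for the E-box CACGTG and for a pair of E-box-like elements, CACGNG or its mirror image CNCGTG in any combination, spaced by 5 bases. The form of the pair was set after the *Txnip* promoter had been read. The stretches that hold a match are given 5′ to 3′ on the gene's own strand, with the matched bases in capitals. *Txnip* is shown at chr3:96557807-96557936 (plus strand), *Arrdc4* at chr7:68749399-68749458 (minus strand), *Mlxipl* at chr5:135089760-135089819 (plus strand) and *Mlx* at chr11:101087220-101087279 (plus strand).
Txnip: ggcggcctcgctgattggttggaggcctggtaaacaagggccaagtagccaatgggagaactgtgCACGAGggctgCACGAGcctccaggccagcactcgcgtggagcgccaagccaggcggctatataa
Arrdc4: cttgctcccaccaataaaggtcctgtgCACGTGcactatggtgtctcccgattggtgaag
Mlxipl: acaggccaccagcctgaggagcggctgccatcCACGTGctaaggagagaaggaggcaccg
Mlx: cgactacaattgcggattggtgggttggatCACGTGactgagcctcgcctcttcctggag

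*Txnip* was the only one of the 10 genes with the pair, as 2 direct copies that begin 85 bases upstream of its start; 27 of all 32851 promoters, or 0.0822%, held such a pair. *Arrdc4*, *Mlxipl* and *Mlx* each had 1 E-box, 193, 98 and 40 bases upstream, against 7.15% of all promoters. The CCAAT box, bound by NF-Y, was found in a promoter of 8 of the 10 genes, 6 times in that of *Arrdc4* and 2 times each in those of *Txnip*, *Mlxip* and *Mlx*. Of all promoters 37.4% held it and 11.7% held it at least 2 times. The first count is by gene and these shares are by promoter, so a gene with several start sites had more than 1 promoter in which to match. *Txnip* also had the forkhead letters GTAAACA, 121 bases upstream (3.65% of promoters). The cAMP response half-site TGACG (20.8% of promoters) was found in a promoter of 6 of the 10 genes, again counted by gene, but in neither *Txnip* nor *Arrdc4*. No E-box was found in the *Mlxip*, *Arrdc3*, thioredoxin or reductase promoters within these windows. A match is a run of letters and not a measured binding site.

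None of the 14 probes differed between the genotypes at an adjusted p under 0.05, which 0.11% of all compared probes did. Unadjusted p-values under 0.05 were found for 2 of the 14, the brighter *Mlxipl* probe and *Txnrd2*, against 3.59% of all probes. The groups did not overlap for 1 of the 14, *Txnrd2*, against 4.12% of all probes. Of the 14, 9 were higher and 5 lower in β-CB1R-/- islets, with a median log2 fold change of 0.08, against -0.02 over all compared probes. In whole islets, fewer cells of a type and less RNA per cell cannot be told apart. All levels below are log2 intensities relative to the array's 75th percentile, and differences are β-CB1R-/- minus β-CB1R+/+ on that scale.

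**Figure D1:**
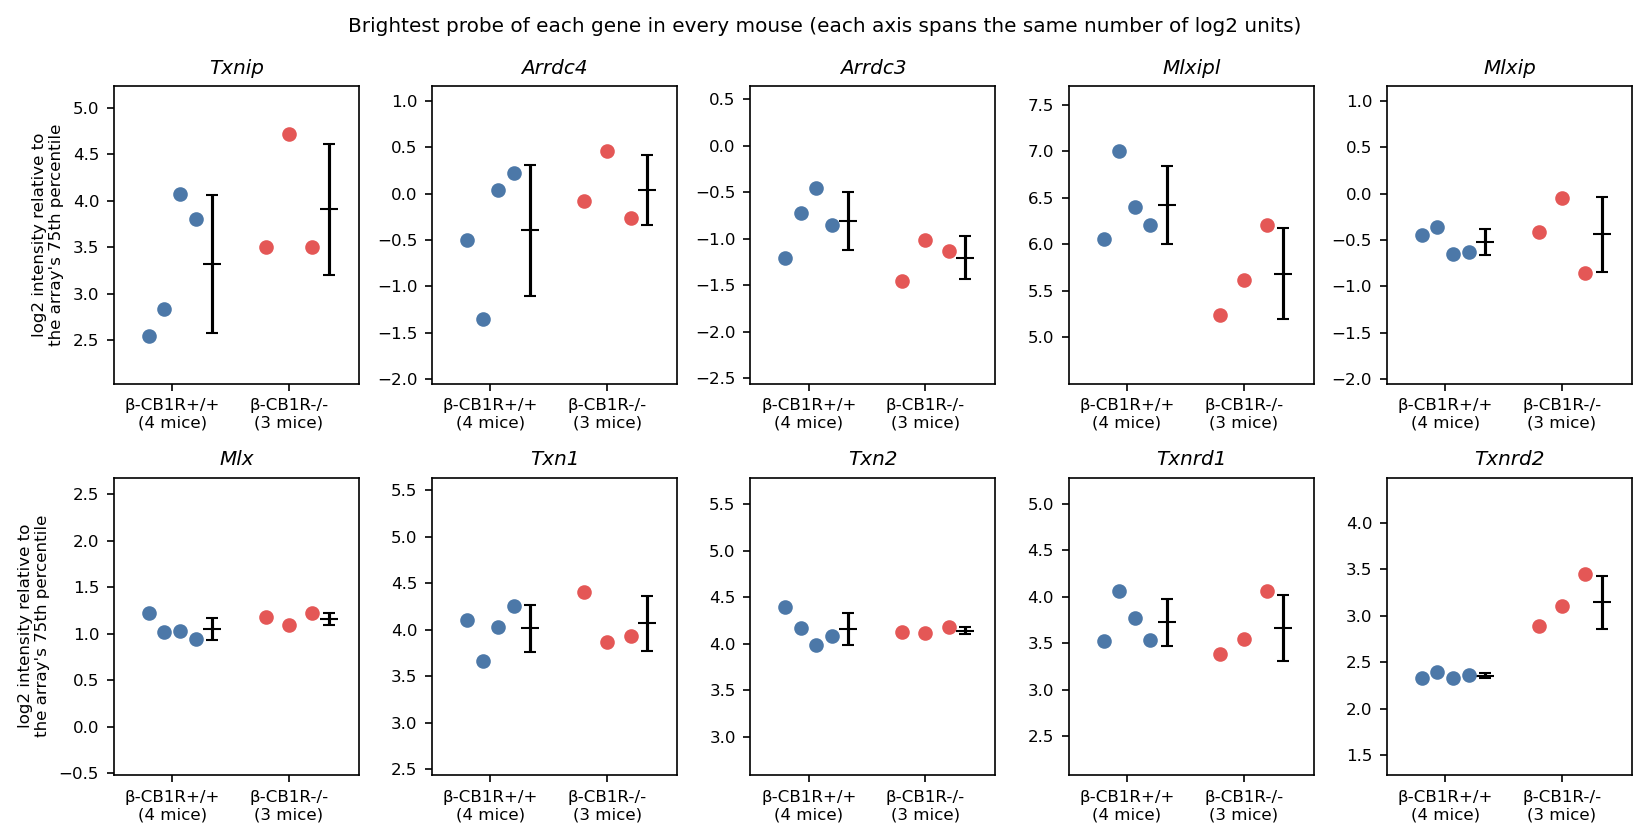
Log2 intensity of the brightest probe of each gene in every mouse (points; blue, 4 β-CB1R+/+ mice; red, 3 β-CB1R-/- mice), with the mean and SD of each group in black; every panel spans the same number of log2 units. *Txnip*, *Arrdc4* and *Mlxipl* spread widely within a genotype, *Mlx* and *Txn2* hardly at all, and *Txnrd2* is the gene whose groups do not overlap.

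*Txnip* varied widely between mice of the same genotype and did not differ detectably between the genotypes. Its brighter probe was at 2.55, 2.83, 4.08 and 3.81 in the 4 β-CB1R+/+ mice and at 3.50, 4.72 and 3.50 in the 3 β-CB1R-/- mice. The highest mouse, β-CB1R-/- replicate 2, gave 4.69 and 4.75 on its repeat arrays, so that the arrays of 1 mouse differed far less than the mice did. The β-CB1R+/+ mice lay on both sides of the other β-CB1R-/- mice, and the groups overlapped. The log2 fold change was 0.59 ± 0.47 (SE), with a 95% confidence interval from -0.49 to 1.68 and an adjusted p of 0.999 in limma; the two-sided exact permutation test over the 35 splits of the mice gave p = 0.314. Without β-CB1R-/- replicate 2 the log2 fold change was 0.19. The dimmer probe ran the same way over the mice, from 0.58 in β-CB1R+/+ replicate 1 to 1.70 in β-CB1R-/- replicate 2, with a log2 fold change of 0.20 ± 0.31 (SE). The 2 probes had r = 0.96 over the 7 mice (exact permutation p = 0.00119, 0.00833 after adjustment over 7 relations between probes; rho = 0.96). The range of the brighter probe, 2.17, exceeded that of 90.2% of 16944 genes, whose median range was 0.94.

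*Arrdc4*, the α-arrestin most like *Txnip* and also an inhibitor of glucose uptake, gave a different answer on each of its probes. The brighter probe was at -0.50, -1.35, 0.04 and 0.23 in β-CB1R+/+ mice and at -0.08, 0.46 and -0.27 in β-CB1R-/- mice. β-CB1R-/- replicate 2 was the highest here, as for *Txnip*, and β-CB1R+/+ replicates 1 and 2 were the lowest. The log2 fold change was 0.43 ± 0.40 (SE), with a 95% interval from -0.48 to 1.35 and an exact permutation p of 0.486, and it was 0.12 without β-CB1R+/+ replicate 2. The dimmer probe, which is annotated to another *Arrdc4* transcript, was at -0.81, -0.57, -0.65 and -0.29 in β-CB1R+/+ mice and at -0.52, -1.27 and -0.20 in β-CB1R-/- mice. On that probe β-CB1R-/- replicate 2 was the lowest of the 7, at -1.22 and -1.32 on its repeat arrays, and the log2 fold change was -0.08 ± 0.29 (SE). Over the 7 mice the 2 probes had r = -0.25 (exact permutation p = 0.564).

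*Arrdc3*, an α-arrestin that acts in adrenergic receptor and metabolic control, was at -1.20, -0.72, -0.46 and -0.85 in β-CB1R+/+ mice and at -1.46, -1.02 and -1.13 in β-CB1R-/- mice. The lowest mouse was a β-CB1R-/- mouse and the 3 highest were β-CB1R+/+ mice, but β-CB1R+/+ replicate 1 lay within the knockout range. The log2 fold change was -0.39 ± 0.24 (SE), with an exact permutation p of 0.143. The other α-arrestins, *Arrdc1*, *Arrdc2* and *Arrdc5*, had log2 fold changes between -0.01 and 0.32, and none passed the adjusted threshold.

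**Figure D2:**
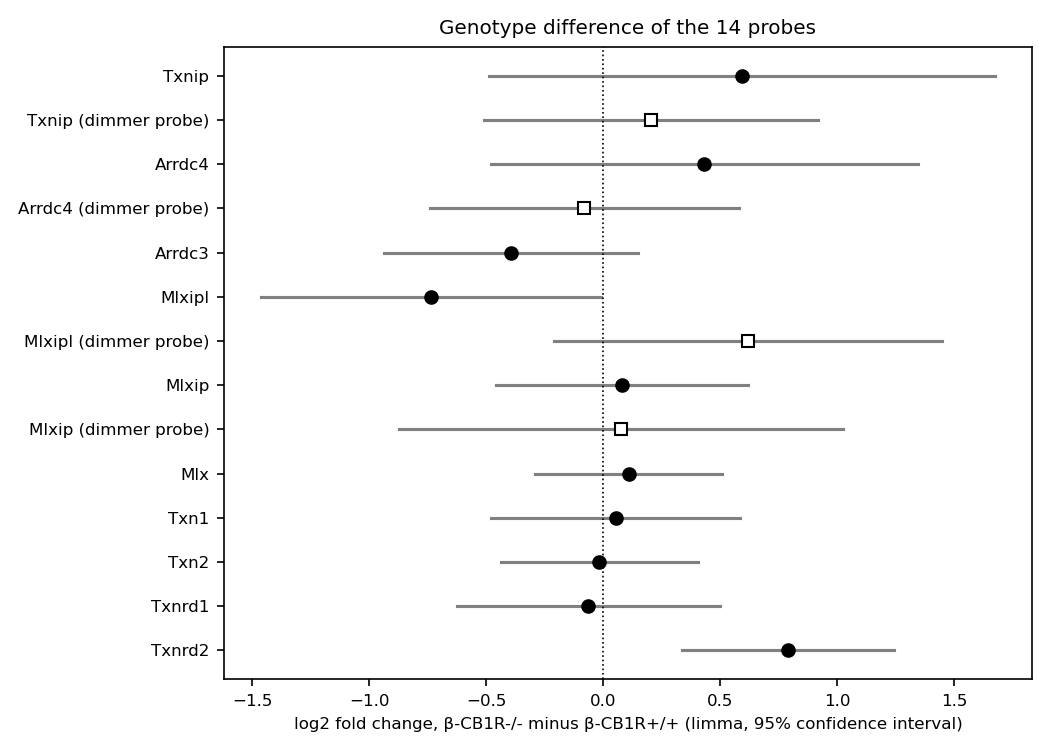
Log2 fold change of each of the 14 probes, β-CB1R-/- minus β-CB1R+/+ (horizontal axis, limma, with 95% confidence interval); filled circles are the brightest probe of a gene and open squares the dimmer one. The intervals of *Txnrd2* and of the brighter *Mlxipl* probe do not reach 0, and the 2 *Mlxipl* probes lie on opposite sides of it.

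Among the glucose sensors, *Mlxipl* had the widest spread. Its brighter probe was at 6.06, 7.01, 6.40 and 6.21 in β-CB1R+/+ mice and at 5.23, 5.61 and 6.20 in β-CB1R-/- mice. The 2 lowest mice were knockouts, and β-CB1R-/- replicate 3 lay above the lowest β-CB1R+/+ mouse. The log2 fold change was -0.74 ± 0.32 (SE), with a 95% interval from -1.47 to -0.0088, an unadjusted p of 0.0479 and an adjusted p of 0.999 in limma; the exact permutation p was 0.114. The dimmer probe, annotated to the same transcript, was at 1.67, 1.45, 1.48 and 1.82 in β-CB1R+/+ mice and at 2.44, 2.90 and 1.33 in β-CB1R-/- mice. The 2 mice lowest on the brighter probe were the 2 highest on the dimmer one, whose log2 fold change was 0.62 ± 0.36 (SE). The mean of the 2 probes gave -0.06. Over the 7 mice they had r = -0.78 (exact permutation p = 0.0371, 0.0866 after adjustment over the 7 relations; rho = -0.68, p = 0.110) and r = -0.91 without the 2 mice farthest from the median of the brighter probe. The direction of *Mlxipl* therefore depended on the probe.

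Markers of other cells moved with the *Mlxipl* values. The 13 acinar markers together, as mean deviation from each gene's average over the mice, were lowest in β-CB1R+/+ replicate 2 (-0.78) and β-CB1R-/- replicate 3 (-0.64), which had the highest level of the brighter *Mlxipl* probe in their groups, and lay between 0.09 and 0.50 in the other 5 mice. The 9 beta cell markers were highest in β-CB1R+/+ replicate 2 (0.31) and lowest in β-CB1R-/- replicates 1 (-0.21) and 2 (-0.32), the mice lowest on the brighter *Mlxipl* probe and highest on the dimmer one. The 9 did not run alike: *Slc2a2*, the glucose transporter GLUT2, was lowest in β-CB1R-/- replicate 2 (3.97) and highest in β-CB1R+/+ replicate 2 (6.05), whereas *Ins2* was at 10.50 and 9.89 in the same mice. The part of these markers in the *Mlxipl* difference was not tested.

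*Mlxip* and *Mlx* hardly differed between the groups. *Mlxip* was at -0.44, -0.36, -0.65 and -0.63 in β-CB1R+/+ mice and at -0.42, -0.05 and -0.85 in β-CB1R-/- mice, so that both the highest and the lowest mouse were knockouts. Its log2 fold change was 0.08 ± 0.23 (SE) on this probe and 0.08 ± 0.41 on the dimmer one, and it was -0.12 without β-CB1R-/- replicate 2. *Mlx*, the shared partner, was between 0.94 and 1.22 in β-CB1R+/+ mice and between 1.09 and 1.22 in β-CB1R-/- mice. The log2 fold change of *Mlx* was 0.11 ± 0.17 (SE), with a 95% interval from -0.29 to 0.51. Its range over the 7 mice, 0.28, was narrower than that of all but 2.14% of genes.

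**Figure D3:**
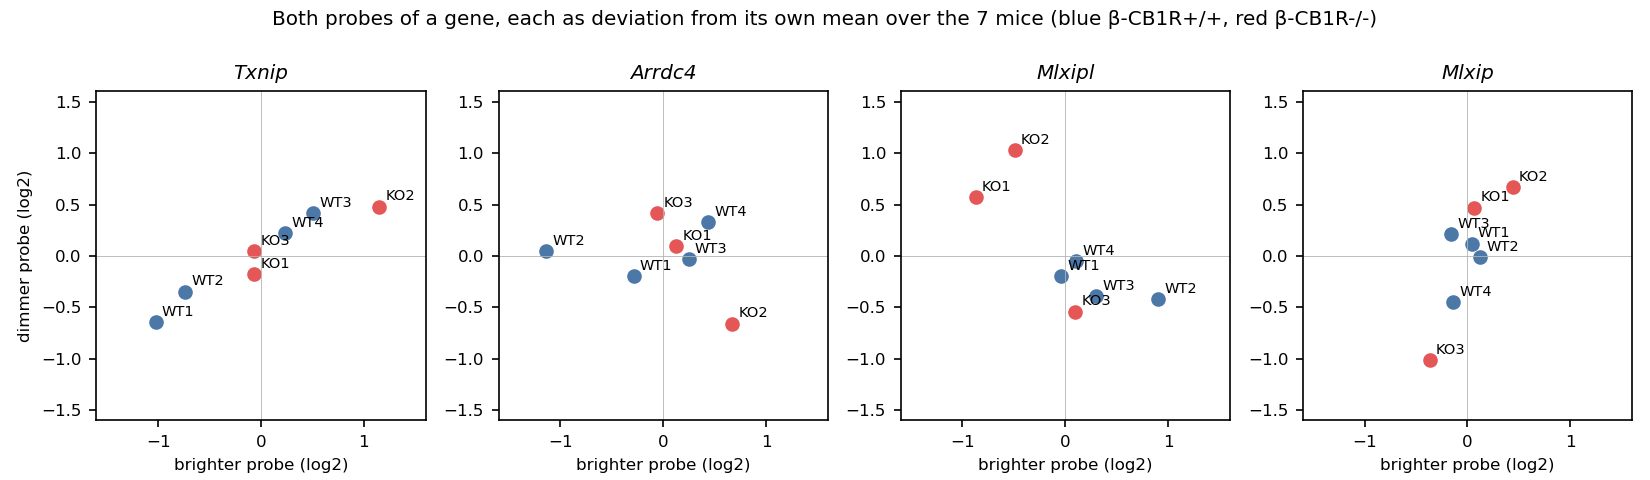
The 4 genes with 2 probes: the dimmer probe (vertical axis) against the brighter one (horizontal axis), each as log2 deviation from its own mean over the 7 mice, with 1 point per mouse (blue, β-CB1R+/+; red, β-CB1R-/-). The *Txnip* points rise together (r = 0.96) and the *Mlxipl* points run in opposite directions (r = -0.78); in *Arrdc4* the knockout replicate 2 is high on one probe and low on the other.

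Neither thioredoxin differed detectably between the genotypes. *Txn1* was at 4.11, 3.67, 4.03 and 4.26 in β-CB1R+/+ mice and at 4.41, 3.87 and 3.94 in β-CB1R-/- mice, with a log2 fold change of 0.05 ± 0.23 (SE). *Txn2* was at 4.39, 4.17, 3.98 and 4.09 in β-CB1R+/+ mice and at 4.12, 4.12 and 4.18 in β-CB1R-/- mice, with a log2 fold change of -0.02 ± 0.18 (SE). Leaving out 1 mouse turned the sign of either value, and their 95% intervals, from -0.48 to 0.59 for *Txn1* and from -0.44 to 0.40 for *Txn2*, bound the difference that these mice allow. The range of *Txn2*, 0.41, was in the lowest 7.88% of genes.

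*Txnrd2*, the mitochondrial enzyme that reduces thioredoxin 2, was at 2.33, 2.39, 2.33 and 2.36 in β-CB1R+/+ mice and at 2.89, 3.10 and 3.45 in β-CB1R-/- mice. Every β-CB1R-/- mouse lay above every β-CB1R+/+ mouse, and the repeat arrays of replicate 2 gave 3.04 and 3.16. The log2 fold change was 0.79 ± 0.20 (SE), or 1.73-fold, with a 95% interval from 0.34 to 1.24. The unadjusted p was 0.00386 and the adjusted p 0.831 in limma, so that it did not pass the threshold; the exact permutation p was 0.0286, the smallest that 4 against 3 mice can give. The 4 β-CB1R+/+ mice had an SD of 0.03, against 0.28 in the 3 β-CB1R-/- mice, and leaving out 1 mouse at a time gave 0.64 to 0.92. *Txnrd1*, the cytosolic reductase, was at 3.53, 4.06, 3.77 and 3.53 in β-CB1R+/+ mice and at 3.38, 3.54 and 4.06 in β-CB1R-/- mice. The groups overlapped, with a knockout the lowest of the 7 mice, and the log2 fold change was -0.06 ± 0.24 (SE). *Txnrd3*, the reductase related to both, had a log2 fold change of 0.16 ± 0.21 (SE). All 8 macrophage markers were higher in β-CB1R-/- mice, with a median log2 fold change of 0.37 and mean deviations from -0.39 to 0.18 in β-CB1R+/+ mice and from -0.13 to 0.55 in β-CB1R-/- mice; none passed the adjusted threshold. β-CB1R-/- replicate 3 was the highest mouse for both these markers and *Txnrd2*, whereas β-CB1R+/+ replicate 4 lay above β-CB1R-/- replicate 1 for the markers. Of the 5 alpha cell markers 4 were lower in β-CB1R-/- mice, with a median log2 fold change of -0.59 and mean deviations from -0.05 to 0.35 in β-CB1R+/+ mice and from -0.51 to -0.06 in β-CB1R-/- mice. *Ttr* (-0.83) and *Irx2* (-0.75) had the largest log2 fold changes among them, and none passed the adjusted threshold. The part of either list in the *Txnrd2* difference was not tested.

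The next question was whether *Txnip* moved over the 7 mice with its α-arrestin relative and the ChREBP partners, or with *Fos*. From highest to lowest, *Txnip* placed the mice as β-CB1R-/- replicate 2, β-CB1R+/+ replicates 3 and 4, β-CB1R-/- replicates 1 and 3 with nearly equal values, and β-CB1R+/+ replicates 2 and 1. The brighter *Arrdc4* probe was highest in the same 3 mice and lowest in the same 2. *Txnip* and this probe had r = 0.82 (exact permutation p = 0.0236) and rho = 0.93 (p = 0.00675). After adjustment over the 9 relations of *Txnip* with the other genes the p-values were 0.213 for r and 0.0607 for rho, so that neither passed. Without the 2 mice farthest from the median of *Txnip*, r was 0.92, and on deviations from the genotype means it was 0.78. It was 0.75 without β-CB1R-/- replicate 2 (exact permutation p = 0.0736). The dimmer *Arrdc4* probe did not follow *Txnip* (r = -0.36, exact permutation p = 0.432).

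ChREBP and its partners had no detectable relation to *Txnip*. The brighter *Mlxipl* probe had r = -0.38 with it (exact permutation p = 0.394) and the dimmer one r = 0.58 (p = 0.178), *Mlxip* had r = 0.24 (p = 0.617) and *Mlx* r = -0.34 (p = 0.453). With 7 mice these correlations have wide error, and their p-values do not show that the genes are unrelated. *Txn2* ran against *Txnip*, with r = -0.73 (exact permutation p = 0.0637, 0.287 adjusted) and rho = -0.86 (p = 0.0238, 0.107 adjusted), over its narrow range. *Arrdc3*, *Txn1*, *Txnrd1* and *Txnrd2* had r between -0.23 and 0.37. On deviations from the genotype means, *Arrdc3* had r = 0.72 with *Txnip*, *Mlx* r = -0.74 and *Txn2* r = -0.77, nearly as large as that of *Arrdc4*; these values have no test.

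*Fos* values fell into separate clusters, so that no correlation is given for it. *Fos* was at -0.82, -1.59, 6.31 and 5.34 in β-CB1R+/+ mice and at 0.75, 5.84 and -0.71 in β-CB1R-/- mice. It was therefore high in 3 mice of both genotypes, which were the 3 mice with the highest *Txnip* and the 3 with the highest value of the brighter *Arrdc4* probe. These same 3 mice did not share a high value of *Mlxipl* or *Mlx*. Their brighter *Mlxipl* probe was at 6.40, 6.21 and 5.61, within the range of the remaining mice (5.23 to 7.01), and their *Mlx* was at 1.03, 0.94 and 1.09. *Txn2* was lowest in these 3 mice, at 3.983, 4.087 and 4.115, against 4.125 to 4.39 in the remaining mice. Among the 4 mice with low *Fos*, *Txnip* still ran from 2.55 to 3.50. *Txnip* thus shared its highest mice with both *Arrdc4* and *Fos*, and these 7 mice do not separate the relations. The match with *Fos* was known when the genes and rules were chosen and is no independent evidence.

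**Figure D4:**
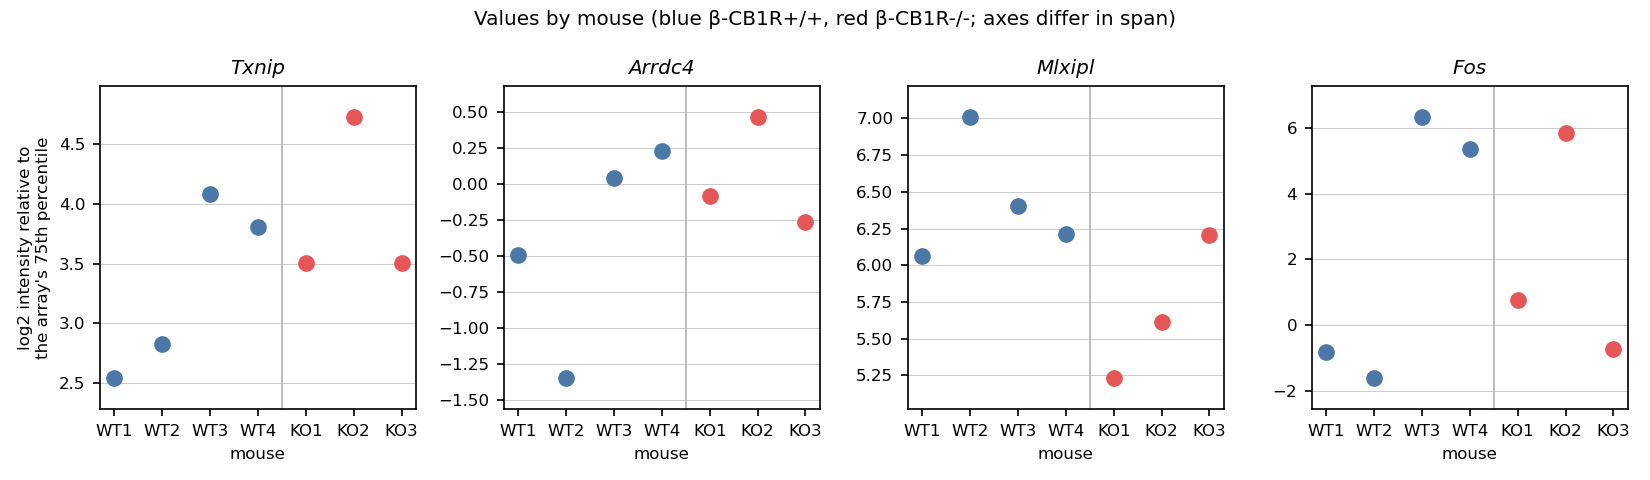
Log2 intensity of *Txnip*, *Arrdc4* (brighter probe), *Mlxipl* (brighter probe) and *Fos* in each mouse (WT1 to WT4, β-CB1R+/+ in blue; KO1 to KO3, β-CB1R-/- in red); the vertical axes differ in span. WT3, WT4 and KO2 are the 3 highest mice for *Txnip*, *Arrdc4* and *Fos*, and not for *Mlxipl*.

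Markers of other cells also differed between the mice. All 6 stromal markers were higher in β-CB1R-/- mice, with a median log2 fold change of 0.94, and none passed the adjusted threshold. Their mean deviations were -1.20, -1.74, -0.74 and 2.04 in β-CB1R+/+ mice and 0.48, 0.88 and 0.27 in β-CB1R-/- mice. They were thus lowest in β-CB1R+/+ replicates 1 and 2, the mice with the lowest *Txnip*, but also low in replicate 3, which had the second highest *Txnip*, and highest in replicate 4. The macrophage markers were lowest in β-CB1R+/+ replicates 1 (-0.39) and 2 (-0.32) and highest in β-CB1R-/- replicate 3 (0.55). Over the 7 mice their r with *Txnip* differed between genes, from 0.84 for *Cd68* to -0.07 for *Adgre1*. The alpha cell markers were lowest in β-CB1R-/- replicate 2, the mouse with the highest *Txnip*, and had a median r of -0.64 with it. The part of these markers in the *Txnip* values was not tested. As checks of the tissue, *Ins1* was between 10.41 and 11.23 and *Gcg* between 9.43 and 10.12 in every mouse, and 12 of the 13 acinar markers were also far above the 75th percentile, from 8.55 to 11.43. The islet samples thus also held acinar RNA, and the mean deviation of the acinar markers differed between mice, from -0.78 to 0.50.

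By Pearson's r over the 7 mice among 16943 other genes, the genes most like *Txnip* were *Trp53inp1* (0.97), *Nr1d1* (0.97), *Tnni2* (0.96), *Sertad1* (0.95), *Cpeb2* (0.95), *Gadd45b* (0.95), *Cebpb* (0.95) and *Zbtb16* (0.95). *Trp53inp1* is a p53-induced stress gene, *Nr1d1* encodes the clock repressor REV-ERBα, *Gadd45b* is a stress-induced regulator of growth arrest, and *Cebpb* encodes a bZIP transcription factor. *Trp53inp1* was at 1.47, 1.34, 2.61 and 2.44 in β-CB1R+/+ mice and at 1.95, 3.00 and 1.98 in β-CB1R-/- mice, and *Nr1d1* was at -1.54, -1.55, 1.35 and 0.68 and at -0.10, 1.55 and -0.17. Both were highest in β-CB1R-/- replicate 2 and β-CB1R+/+ replicates 3 and 4 and lowest in β-CB1R+/+ replicates 1 and 2, as *Txnip* was. The genes most opposed were *Polr2l* (-0.99), *Pfas* (-0.99), *Bod1* (-0.99) and *Tfg* (-0.99). *Arrdc4* stood at rank 150. With so few mice high values are common: 8.31% of genes had an r beyond 0.75 in size, and these ranks are a description.

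The targets of ChREBP and MondoA were read from a list of 22 genes, all compared. None passed the adjusted threshold, which 0.171% of genes did; 14 were higher and 8 lower in β-CB1R-/- islets, with a median log2 fold change of 0.13, against -0.04 over all genes. *Rgs16*, a glucose-induced inhibitor of G protein signalling, had a log2 fold change of -0.97 ± 0.49 (SE). *Nr1d1* and *Bhlhe40*, a clock repressor at rank 9 in likeness to *Txnip* (r = 0.94), belong to this list, and *Klf10* (r = 0.81) and *Khk*, ketohexokinase (r = 0.79), also ran with *Txnip*. *Fasn*, fatty acid synthase, ran against it (r = -0.82). Over the 21 of these genes whose values did not fall into separate clusters 12 had a positive r, with a median of 0.24, against a median of -0.16 over all such genes.

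The other lists of this pathway also held no gene past the adjusted threshold. In the MLX and MAX network, 3 of 8 compared genes were higher and 5 lower, with the largest differences in *Mycn* (0.38 ± 0.48, SE) and *Mxd1*, a MAX-binding repressor (-0.37 ± 0.25). Of 24 thioredoxin-dependent and related redox genes 13 were higher and 11 lower. The largest log2 fold changes were those of *Txnl1*, a thioredoxin-like protein of the proteasome (-0.51), and *Prdx4*, the peroxiredoxin of the endoplasmic reticulum (0.48). *Prdx4* was lowest in β-CB1R+/+ replicate 2 (3.02) and β-CB1R-/- replicate 3 (3.67), as the acinar markers were. The part of those markers in its difference was not tested. Of 10 NRF2 targets 5 were higher and 5 lower, led by *Hmox1*, haem oxygenase 1 (0.59 ± 0.40, SE), and *Srxn1*, sulfiredoxin (-0.35 ± 0.30). *Txn1* and *Txnrd1* are themselves among these 10 targets.

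Among 14 partners of TXNIP and proteins that turn it over, 6 were higher and 8 lower. *Ddit4* (REDD1), an mTORC1 inhibitor that forms a complex with TXNIP, had the largest log2 fold change, -0.57 ± 0.58 (SE); it was at 3.43, 3.29, 5.28 and 5.07 in β-CB1R+/+ mice and at 3.28, 4.47 and 3.35 in β-CB1R-/- mice, high in the same 3 mice as *Txnip*. *Nlrp3*, the inflammasome sensor that TXNIP can bind, had a log2 fold change of -0.42 ± 0.20 (SE), and *Itch*, the ligase that marks TXNIP for degradation, one of 0.03 ± 0.17. Of 13 other transcriptional regulators of *Txnip* 4 were higher and 9 lower, with *Ppargc1a* at -0.47 and *Foxo3* at 0.46. Of the 14 immediate-early genes compared, 4 were higher and 10 lower, with *Egr2* at 1.35 ± 0.90 (SE) and *Fosb* at -0.88 ± 2.37, and the mean deviation of the list was between 1.40 and 2.24 in those 3 mice and between -1.80 and -0.96 in the other 4 mice. Of these 14 genes 7 fell into separate clusters, as *Fos* did, and have no r. Of the other 7, 6 had a positive r with *Txnip*, with a median of 0.76, and *Egr2* (r = 0.85, rank 88), *Jun* (r = 0.85, rank 95) and *Atf3* (r = 0.84, rank 119) stood above *Arrdc4* (rank 150) in likeness to it. No test compared the r of these genes with that of *Arrdc4*. *Jun* and *Atf3* were also set apart in those 3 mice, though their gaps did not meet the rule for separate clusters. *Jun* was between 6.60 and 7.55 there and between 2.37 and 4.13 in the other 4 mice. *Atf3* was between 1.84 and 4.15 and between -5.41 and -2.04. *Egr2* and *Atf3* were lowest in β-CB1R+/+ replicate 2 (-6.065 and -5.41), very low levels on this scale. The part of these values in the r of each gene was not tested.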

How the data were processed

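The authors deposited the scanner intensity of each spot on 8 one-colour Agilent arrays (Cy3), background-subtracted by Feature Extraction 11.5.1.1 and not scaled between arrays, and a Z score per spot, which matched the standardised log10 intensity of the array's spots to within 0.00503. For the array analysis the paper points to previous work. Here, the log2 intensity of each of the 59305 non-control spots was set against the 75th percentile of its array. Outlier spots, as marked by the scanner software, were dropped, and a probe's spots were averaged, as were the 2 arrays of β-CB1R-/- replicate 2. Probes entered the comparison if 3 or more mice showed them well above background. No spot was saturated, and the number of arrays limits the precision. limma 3.58.1 under R 4.3.3 (lmFit, then eBayes) compared the genotypes in a two-sided test. Its p-values were adjusted by Benjamini-Hochberg over all 39124 compared probes. Single genes also had an exact permutation test over the 35 splits of the mice (Python 3.11.15). Correlations over the 7 mice were tested over the 5040 pairings (scipy 1.17.1). A gene was taken as falling into separate clusters when its largest gap was over 50% of its range with at least 2 mice on each side.

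The brightest compared probe stood for a gene in lists and correlations. Symbols came from RefSeq accessions (GRCm38.p6), which 28026 probes matched; 22114 of them were compared, for 16944 genes. The arrays' header names another build, so no gene coordinates are given beyond the promoters. The files do not say that mice of a group were from separate litters, so p-values measure only the spread between these 7 mice. In simulated data for the same 4 against 3 mice and 39124 probes, each size of change was given to 50 probes. A log2 change of 1 was recovered in 6% of them, a change of 2 in 46%, a change of 3 in 82% and a change of 4 in 88%; there were 2 false calls.

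The genes, lists and rules were chosen with earlier results of these data known, among them the higher *Txnip* in mice with high *Fos*, which is therefore no independent evidence. Named were all 10 genes, *Cnr1*, *Fos*, per list other than those of cell markers the genes past the threshold or else the 2 with the largest difference, and the 8 genes most like and 4 least like *Txnip*; *Arrdc1*, *Txnrd3*, *Slc2a2*, *Ins2*, *Cd68*, *Adgre1*, *Ttr*, *Irx2*, *Ins1*, *Gcg*, *Bhlhe40*, *Klf10*, *Khk*, *Fasn*, *Jun*, *Atf3* and *Itch* were named after their values were seen. 1 gene that the rule names is not reported here. Proteins measured by the study were not analysed here.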

Additional observations from a re-analysis of the deposited data

How the results depend on the processing

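No probe of the 10 genes passed the adjusted threshold under any of the 17 alternatives (0 of 14 each; 1 to 4 at an unadjusted p under 0.05). The *Txnip* log2 fold change stayed positive and not significant, from 0.40 to 0.76 under 10 alternatives on the log2 scale, 0.20 on the deposited Z score scale, and 0.19 to 0.85 with 1 mouse left out. The correlation of *Txnip* with *Arrdc4* was 0.65 with a normexp background (exact permutation p = 0.120) and 0.60 with the mean of all compared probes (p = 0.154), and 0.75 to 0.93 with 1 mouse left out, the lowest without β-CB1R-/- replicate 2 (p = 0.0736). Under the other alternatives with a test its p before adjustment stayed under 0.05; on deviations from the genotype means it was 0.78, with no test. Log2 fold changes near 0 turned sign, and the cause was not tested: with normexp *Mlxip* (-0.0049), with quantile normalization *Txn2* (0.013), and with 1 mouse left out *Mlxip* (-0.12 to 0.29), *Txn1* (-0.12 to 0.16), *Txn2* (-0.075 to 0.061) and *Txnrd1* (-0.26 to 0.077). *Txnrd2* kept its sign throughout and passed under no alternative. The 43 probes called over the whole array fell to 0 without β-CB1R-/- replicate 2, under the replicate block and under the methods' t-test, to 23 with no filter, to 24 with probes above background on all 8 arrays, and to between 5 and 42 with another mouse left out. The replicate numbers do not pair the mice (same-number correlations of deviations 0.42, -0.27 and -0.06); with the replicate block, on 3 mice a group, the *Txnip* log2 fold change was 0.76 and 0 of 14 probes passed. The alternatives planned for the relation of *Txnip* with *Fos* were not run, since *Fos* fell into separate clusters. The normexp background used median spot signals. With 3 knockout mice, changes under about 1 on the log2 scale were rarely recoverable, as the simulation showed.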
